A study of Mus musculus with 24 samples.

Results

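Immunoglobulin variable (V) segments were followed across macrophages from 4 tissues of wildtype and Z165KO mice. They were taken as every gene that the deposited table labels with the biotype IG_V_gene, which gave 218 of 55487 genes. By symbol, 113 were heavy chain segments (Ighv), 100 were kappa light chain segments (Igkv) and 3 were lambda light chain segments (Iglv). The other 2, Gm43218 and Gm42543, carry no chain in their names and lie on chromosome 6 between kappa segments, at 70240427 to 70240972 and 68880178 to 68880674 (mm10). All 113 heavy segments lie on the minus strand of chromosome 12 between 113578504 and 116000461. The kappa segments lie on chromosome 6 between 67555497 and 70704177, 38 on the plus strand and 62 on the minus strand. The 3 lambda segments lie on the minus strand of chromosome 16 between 19085017 and 19260859.

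The series measured bulk RNA from macrophages that live in tissues. Alveolar macrophages came from lung, Kupffer cells from liver, microglia from brain, and the last set from spleen. Each came from wildtype (WT) and Z165KO (KO) mice, with 3 libraries in each of the 8 groups and 24 libraries in all. RNA was prepared from 100000 sorted macrophages per sample. The labels give tissue, cell type and genotype. They do not describe the Z165KO allele, and strain, age and the gate of the sort are not given in the sources used here. They also do not say whether the 3 libraries of a group came from separate mice, so p-values measure only the spread between these libraries, which may be technical.

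A V segment is one of many alternative gene pieces from which a B cell builds its antibody. During B cell development the RAG recombinase joins 1 heavy V segment to a D and a J segment, and 1 kappa or lambda V segment to a J segment, and the joined exon is then spliced to a constant region. Each B cell clone therefore transcribes mainly its own chosen heavy and light segment, and a plasma cell transcribes them at very high levels. A mixture of many B cells spreads its reads over many segments.

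The segments whose levels the results turn on are shown here by the sequence of the exon that encodes most of the variable domain, 5′ to 3′ on the coding strand, from GENCODE M21 transcripts (mm10). Igkv12-44 and Ighv3-6 held most of the V reads left in 1 Kupffer KO library, and Igkv8-30 and Ighv1-22 led in 1 splenic KO library. Capitals in these 4 mark TACTGT, letters that lie close to the 3′ end of many V exons. Exons longer than 300 bases are shown by their last 300. The stretch of Igkv12-44 is at chr6:69814631-69814928 (minus strand), that of Igkv8-30 at chr6:70117061-70117360 (minus strand), that of Ighv3-6 at chr12:114288152-114288451 (minus strand) and that of Ighv1-22 at chr12:114746273-114746572 (minus strand).
Igkv12-44: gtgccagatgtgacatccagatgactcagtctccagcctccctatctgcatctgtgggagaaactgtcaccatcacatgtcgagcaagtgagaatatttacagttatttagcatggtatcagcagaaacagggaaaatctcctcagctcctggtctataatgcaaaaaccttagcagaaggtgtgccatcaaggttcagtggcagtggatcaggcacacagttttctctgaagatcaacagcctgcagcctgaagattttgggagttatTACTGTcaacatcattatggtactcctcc
Igkv8-30: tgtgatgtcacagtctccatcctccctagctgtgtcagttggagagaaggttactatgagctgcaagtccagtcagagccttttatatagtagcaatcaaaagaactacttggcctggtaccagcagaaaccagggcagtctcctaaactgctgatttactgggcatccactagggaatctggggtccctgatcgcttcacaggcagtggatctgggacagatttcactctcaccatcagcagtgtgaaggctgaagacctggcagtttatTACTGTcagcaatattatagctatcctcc
Ighv3-6: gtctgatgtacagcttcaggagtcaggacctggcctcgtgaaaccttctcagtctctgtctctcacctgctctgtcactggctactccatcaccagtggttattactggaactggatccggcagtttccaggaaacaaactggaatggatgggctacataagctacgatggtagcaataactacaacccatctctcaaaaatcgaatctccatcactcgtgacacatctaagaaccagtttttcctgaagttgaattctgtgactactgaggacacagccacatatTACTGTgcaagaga
Ighv1-22: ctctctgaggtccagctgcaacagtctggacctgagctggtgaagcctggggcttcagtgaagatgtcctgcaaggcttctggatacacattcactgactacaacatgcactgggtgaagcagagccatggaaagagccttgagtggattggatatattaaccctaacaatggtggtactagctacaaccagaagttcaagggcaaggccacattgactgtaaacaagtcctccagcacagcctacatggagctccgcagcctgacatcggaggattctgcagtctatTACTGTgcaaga

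Igkv12-41 (chr6:69858420-69858717, minus strand) and Igkv12-46 (chr6:69764523-69764820, minus strand) are close relatives of Igkv12-44, and they are shown because reads of such relatives can be hard to tell apart. Here capitals mark the bases that differ from Igkv12-44. Igkv12-41 differed at 13 of 298 bases (95.6% identity) and Igkv12-46 at 16 (94.6% identity).
Igkv12-41: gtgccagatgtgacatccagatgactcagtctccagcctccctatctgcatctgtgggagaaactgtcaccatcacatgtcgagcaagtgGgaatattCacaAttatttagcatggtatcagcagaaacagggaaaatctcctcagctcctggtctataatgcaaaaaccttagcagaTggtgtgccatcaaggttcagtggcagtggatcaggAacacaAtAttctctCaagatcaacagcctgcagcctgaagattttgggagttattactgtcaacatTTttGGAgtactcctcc
Igkv12-46: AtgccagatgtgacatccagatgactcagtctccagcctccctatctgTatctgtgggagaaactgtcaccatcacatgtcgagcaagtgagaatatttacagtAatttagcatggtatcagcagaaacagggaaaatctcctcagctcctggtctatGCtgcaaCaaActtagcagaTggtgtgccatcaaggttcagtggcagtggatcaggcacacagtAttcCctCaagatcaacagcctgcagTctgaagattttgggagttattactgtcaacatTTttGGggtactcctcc

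Igkv1-117 (chr6:68121528-68121827, plus strand) was among the most abundant kappa segments of WT Kupffer cells, splenic macrophages and alveolar macrophages, and is shown with no capitals.
Igkv1-117: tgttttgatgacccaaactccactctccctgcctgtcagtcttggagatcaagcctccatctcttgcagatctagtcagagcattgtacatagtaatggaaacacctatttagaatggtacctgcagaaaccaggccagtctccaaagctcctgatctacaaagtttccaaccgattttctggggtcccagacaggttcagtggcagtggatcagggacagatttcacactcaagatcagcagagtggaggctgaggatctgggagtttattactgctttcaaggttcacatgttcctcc

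The letters TACTGT, searched on the coding strand alone, occurred in the V exon of 82 of 113 heavy segments (72.6%), and in 80 of these within the last 40 bases. They occurred in 49 of 100 kappa segments (49%), in 45 of them within the last 40 bases, and in 0 of 3 lambda segments. For comparison, 1562 of 21738 central windows of 300 bases from protein-coding transcripts (7.2%) held the same letters. Many segments are near copies of one another. A relative at least 95% identical was found for 57 heavy, 46 kappa and 2 lambda segments, and Ighv1-62-2 and Ighv1-71 were identical. How reads that fit several segments were counted, and whether strand was used, was not stated in the labels read here, so the split of reads between such relatives is uncertain.

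Library depth ranged from 50449347 counts (microglia KO replicate 3) to 65981787 counts (Kupffer KO replicate 1). Zeb2, the transcription factor named in the series title, was measured first as a check of the genotype labels. In alveolar macrophages it was at 297, 282 and 190 CPM (counts scaled to a common library total) in WT and 139, 126 and 142 CPM in KO, groups that did not overlap. The difference was not called (log2 -0.89 ± 0.19 SE, edgeR adjusted p = 0.116). Each SE of a log2 difference given here is that difference divided by the square root of edgeR's F statistic. It was not taken from the fit. In the other 3 cell types the WT and KO ranges of Zeb2 overlapped, so the level of this gene does not by itself check the labels there. Identity genes, such as Siglecf, Clec4f, Tmem119 and Spic, summed highest in libraries labelled with their own cell type. The lowest such sum was 17180 CPM, for splenic genes in WT splenic macrophages, and those genes did not exceed 5848 CPM in any other cell type. Single members did not all follow the sums. Siglec1, of the splenic genes, was at 573 to 733 CPM in WT Kupffer cells and 105 to 256 CPM in WT splenic macrophages. Marco, of the alveolar genes, reached 1294 CPM in WT Kupffer cells and 850 CPM in WT alveolar macrophages. Slc40a1, of the Kupffer genes, reached 6249 CPM in WT splenic macrophages and 5022 CPM in WT Kupffer cells. Kupffer KO replicate 2 and splenic KO replicate 3 stood apart, with far more V reads than the other KO libraries of their cell type. The heavy and kappa sums and the numbers of segments called in their cell types are given with and without them.

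In WT, V segments were most abundant in splenic macrophages and Kupffer cells, lower in alveolar macrophages and near absent in microglia. Summed over the 218 segments, the level was 381, 295 and 319 CPM in WT splenic macrophages, 280, 200 and 185 CPM in WT Kupffer cells, 51.6, 33.8 and 20.7 CPM in WT alveolar macrophages, and 1.45, 5.49 and 1.72 CPM in WT microglia. The ranges of the 4 WT groups did not overlap. Kappa segments held more reads than heavy segments in every WT splenic, Kupffer and alveolar library. In splenic macrophages the mean was 198 ± 34.4 CPM for kappa, 106 ± 12 CPM for heavy and 27.7 ± 18.1 CPM for lambda segments (SD, n = 3). The same means in Kupffer cells were 132 ± 31.2, 74.8 ± 20.8 and 15.1 ± 4.75 CPM, and in alveolar macrophages 20.7 ± 6.94, 14.0 ± 9.44 and 0.692 ± 0.163 CPM. In bulk RNA, fewer cells of a type and less RNA per cell cannot be told apart.

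In KO libraries the summed V level was lower in every cell type. It was 0, 3.80 and 2.06 CPM in KO alveolar macrophages, 0.773, 38.4 and 0.162 CPM in KO Kupffer cells, 0.145, 0.398 and 0.634 CPM in KO microglia, and 3.40, 1.45 and 62.1 CPM in KO splenic macrophages. No KO library reached the lowest WT library of its own cell type. The lowest value, in alveolar KO replicate 1, was 0 of all its counts, which allows a summed level of up to 0.0492 CPM (3 counts in that library). This limit, like every interval given here, covers counting error only, because the reads carry no molecular identifiers.

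**Figure D1:**
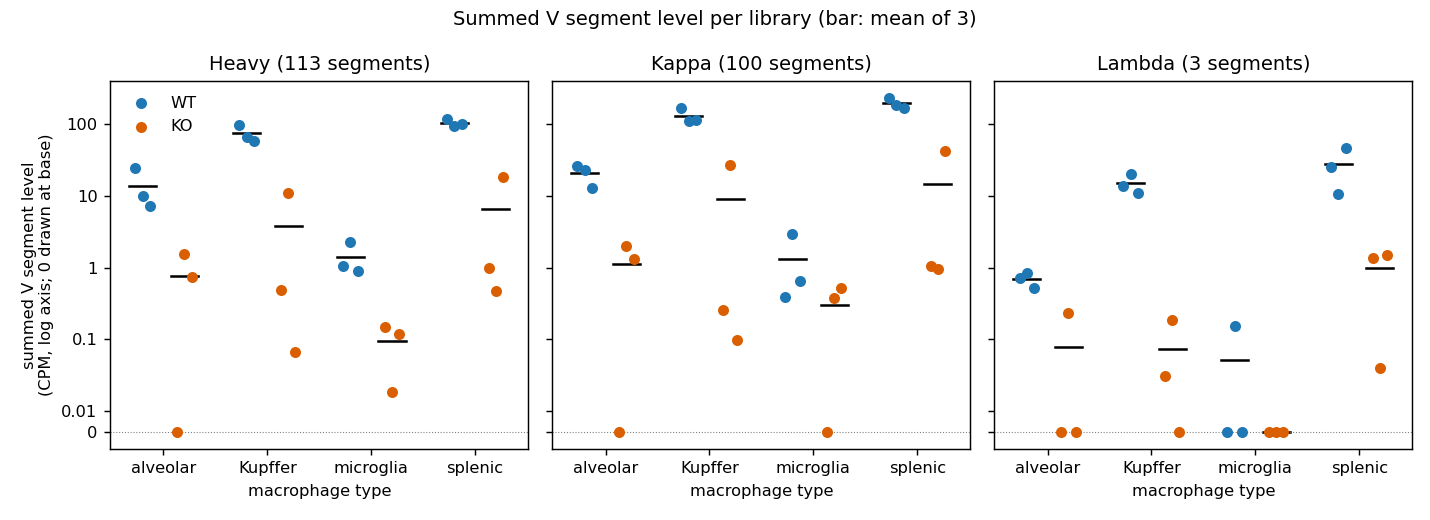
Summed level of heavy, kappa and lambda V segments in each of the 24 libraries, in CPM on a log axis with 0 drawn at the base. Each point is 1 library, bars are means of 3, and the highest KO points for heavy and kappa segments are those of Kupffer KO replicate 2 (11 and 27.2 CPM) and splenic KO replicate 3 (18.4 and 42.2 CPM).

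For each chain the WT and KO sums did not overlap in splenic macrophages, Kupffer cells or alveolar macrophages. Heavy segments, which supply the variable part of the antibody heavy chain, summed to 119, 95.8 and 102 CPM in WT and 0.977, 0.465 and 18.4 CPM in KO splenic macrophages. The log2 ratio of the KO to the WT mean was -4.0, and -7.20 without splenic KO replicate 3. In Kupffer cells heavy segments summed to 98.3, 67.5 and 58.7 CPM in WT and 0.485, 11 and 0.0649 CPM in KO. The log2 ratio was -4.28, and -8.09 without Kupffer KO replicate 2. In alveolar macrophages they summed to 24.8, 9.86 and 7.28 CPM in WT and 0, 1.57 and 0.728 CPM in KO (log2 ratio -4.19).

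Kappa segments supply the variable part of the most used light chain of the mouse. They summed to 236.5, 188 and 170 CPM in WT and 1.05, 0.949 and 42.2 CPM in KO splenic macrophages (log2 ratio of means -3.75, and -7.63 without splenic KO replicate 3). In Kupffer cells the kappa sums were 168, 112 and 115 CPM in WT and 0.258, 27.2 and 0.0974 CPM in KO (log2 ratio -3.84, and -9.54 without Kupffer KO replicate 2). In alveolar macrophages they were 26.1, 23.1 and 12.9 CPM in WT and 0, 2.0 and 1.33 CPM in KO (log2 ratio -4.22). The 3 lambda segments summed to 25.6, 10.6 and 46.7 CPM in WT and 1.38, 0.0387 and 1.5 CPM in KO splenic macrophages (log2 ratio -4.83), and to 13.7, 20.3 and 11.1 CPM in WT and 0.0303, 0.184 and 0 CPM in KO Kupffer cells (log2 ratio -7.72). In these 3 cell types the kappa and lambda groups were apart in every library. In microglia the kappa sums, 0.391, 2.92 and 0.651 CPM in WT and 0, 0.380 and 0.515 CPM in KO, overlapped.

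The number of segments with at least 10 counts followed the sums. In WT it was 152, 145 and 148 of 218 in splenic macrophages, 149, 152 and 126 in Kupffer cells, 45, 44 and 31 in alveolar macrophages and 3, 10 and 2 in microglia. In KO it was 5, 2 and 16 in splenic macrophages, 2, 6 and 0 in Kupffer cells, 0, 3 and 2 in alveolar macrophages and 0, 1 and 1 in microglia. No segment reached 10 counts in all 3 KO libraries of any cell type. Over all 24 libraries 215 segments had a read, 190 reached 10 counts in some library, and Ighv6-7, Ighv1-16 and Ighv2-7 were at 0 throughout.

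**Figure D2:**
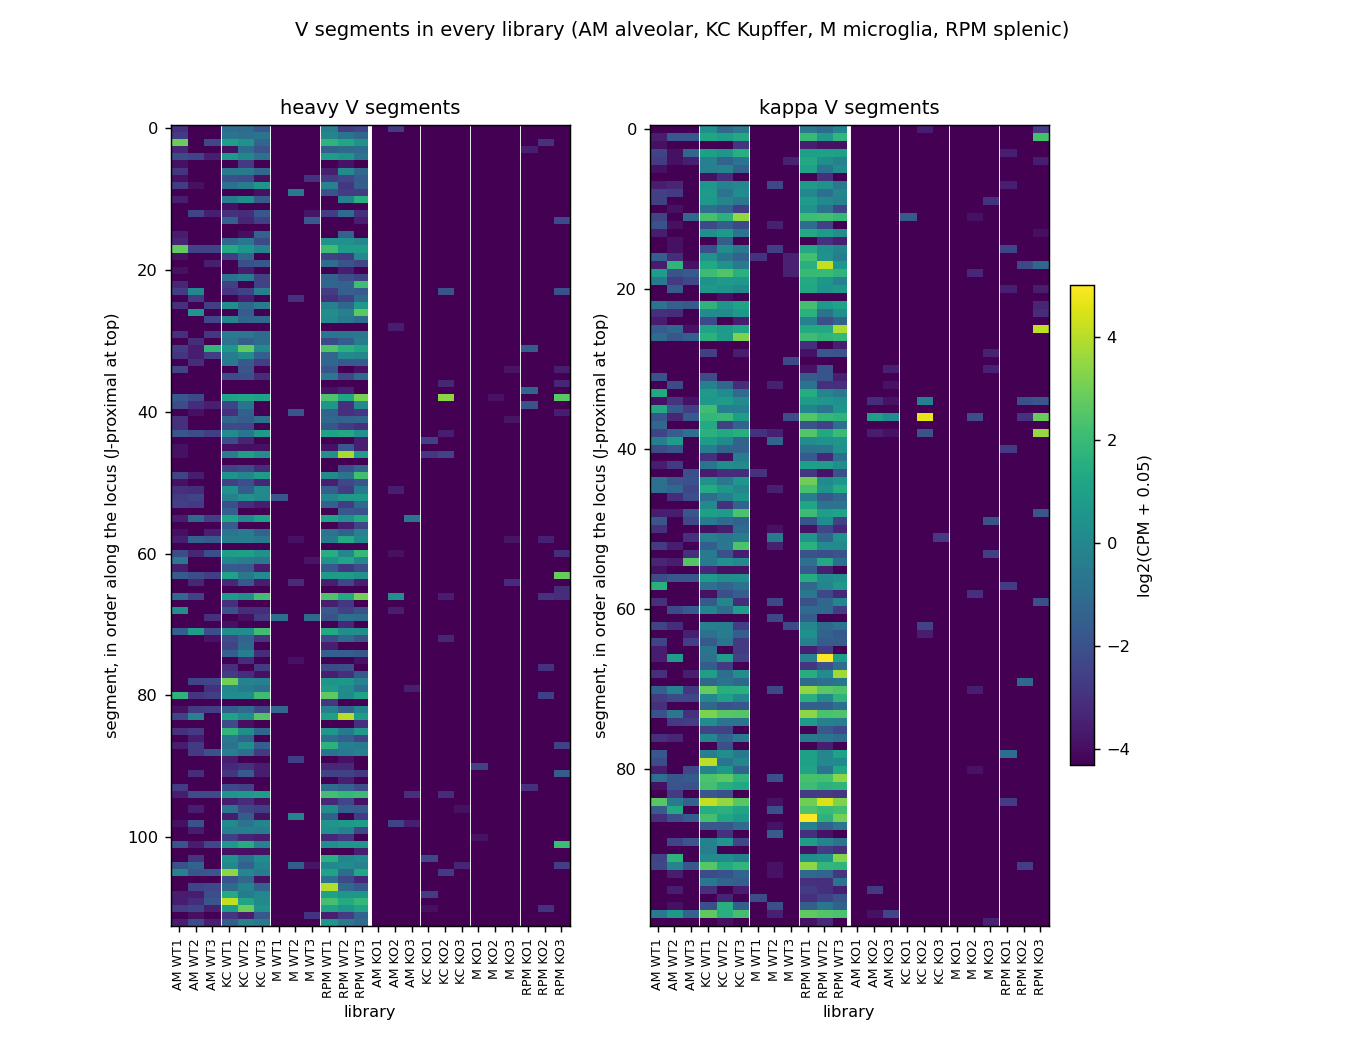
Level of each heavy and kappa V segment (vertical axis, in order along its locus with the end near the J segments at the top) in each of the 24 libraries (horizontal axis), as log2 of CPM + 0.05. WT splenic and Kupffer libraries carry reads over most of the locus, WT alveolar libraries over scattered segments, and KO libraries over a few segments at most.

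Tests were run on single segments with edgeR's quasi-likelihood test over all genes that passed a filter on low counts, with Benjamini-Hochberg adjustment and a threshold of 0.05. Because no segment reached 10 counts in all KO libraries of a cell type, the tested segments had entered mostly through WT, so counts over them describe those segments and not the 218. In splenic macrophages 122 segments were tested and 40 were called lower in KO, against 110 of all 17808 genes tested (0.618%) called lower. None was called higher, against 0.129% of all genes. The called segments were 15 of 52 tested heavy, 24 of 67 tested kappa and 1 of 3 tested lambda segments, and 33 of the 40 had 0 reads in the 3 KO libraries. At an unadjusted p under 0.05 there were 110 of the 122 segments, against 11.7% of all genes, and DESeq2 called 102 of them lower, against 5.07% of all genes called in either direction. Leaving out 1 library at a time left between 0 (without WT replicate 2) and 13 calls (without WT replicate 3), with 6 without WT replicate 1 and 11, 10 and 12 without KO replicates 1, 2 and 3.

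Igkv1-135 had the smallest adjusted p among splenic segments. It had 356, 307 and 284 counts in WT and 0 in all 3 KO splenic libraries, at least 322-fold lower against a floor of 3 counts over the KO group (edgeR adjusted p = 0.00805, and 3.54e-15 to 0.115 over 12 settings, this one included). Igkv9-120 had 294, 215 and 255 counts in WT and 0 in KO, at least 260-fold lower (edgeR adjusted p = 0.00979). Ighv1-64 had 264, 203 and 232 counts in WT and 0 in KO, at least 238-fold lower (edgeR adjusted p = 0.00979). These 3 segments had WT counts of like size in every library, which was not so for the most abundant ones. Igkv6-15, with 238, 244 and 210 counts in WT, was at least 235-fold lower, and Igkv6-32, with 235, 184 and 213, was at least 215-fold lower. Igkv6-23, Igkv14-111 and Ighv1-81 were also at 0 in KO and at least 208-, 201- and 207-fold lower. Igkv19-93 (609, 332 and 303 counts in WT) and Igkv10-96 (573, 270 and 302) had the largest bounds of the 10 with the smallest p, at least 423- and 389-fold.

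Of the called splenic segments with reads in KO, Igkv1-117 had 437, 1222 and 510 counts in WT and 6, 0 and 0 in KO, a 369-fold lower mean (edgeR adjusted p = 0.0251). Ighv1-26 had 287, 137 and 465 counts in WT and 0, 4 and 4 in KO, 113-fold lower (edgeR adjusted p = 0.0320). The lambda segment called was Iglv2, with 376, 84 and 765 counts in WT and 3, 0 and 5 in KO, 156-fold lower (edgeR adjusted p = 0.0464). The groups did not overlap for any of the 3. The most abundant lambda segment, Iglv1, had 875, 318 and 1716 counts in WT and 67, 2 and 76 in KO, a 20.5-fold difference that was not called (edgeR adjusted p = 0.150). Iglv3 had 177, 181 and 147 counts in WT and 6, 0 and 14 in KO, 25.8-fold (edgeR adjusted p = 0.10).

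Several of the segments with the highest mean in WT spleen did not pass the test, and in each of these 1 WT library stood far above the other 2. Igkv17-121 had 2431, 172 and 460 counts in WT and 0 in KO, at least 1040-fold lower (edgeR adjusted p = 0.0893). Igkv12-89 had 46, 2276 and 101 counts in WT and 0 in KO, at least 824-fold lower (edgeR adjusted p = 0.229). Ighv1-55 had 107, 868 and 100 counts in WT and 0 in KO, at least 366-fold lower (edgeR adjusted p = 0.10). WT and KO did not overlap in any of these.

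In Kupffer cells 114 segments were tested and 2 were called lower in KO, against 12 of all 19085 genes tested (0.0629%), with none (0.0%) higher in KO among segments or all genes. Both are kappa segments that were also called in the spleen, which makes the shared set 2 of the 2 Kupffer calls and 2 of the 40 splenic calls. Igkv10-96 had 518, 377 and 344 counts in WT and 0 in all 3 KO Kupffer libraries, at least 426-fold lower (edgeR adjusted p = 0.0340, and 9.63e-16 to 0.665 over 12 settings, this one included). Igkv1-110 had 293, 391 and 213 counts in WT and 0 in KO, at least 308-fold lower (edgeR adjusted p = 0.0432, and 1.04e-13 to 0.665 over the same settings). At an unadjusted p under 0.05 there were 111 of the 114 segments, against 6.94% of all genes, and DESeq2 called 102, against 2.16%. Without Kupffer KO replicate 2 edgeR called 2 segments, Igkv10-96 and the lambda segment Iglv1, and without each of the other 5 libraries it called 0. Igkv1-110 thus lost its call without any 1 of the 6 libraries.

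Other Kupffer segments with 0 reads in KO lay just past the threshold. Igkv1-117 had 1022, 722 and 365 counts in WT, at least 725-fold above the floor in KO (edgeR adjusted p = 0.0527). Igkv1-135, with 368, 178 and 290 counts in WT, and Igkv6-23, with 238, 350 and 180, were at least 287- and 264-fold lower in KO (edgeR adjusted p = 0.0527 for each). Of the 114 tested segments 94 had 0 reads in KO. Iglv1 had 479, 924 and 521 counts in WT and 0, 10 and 0 in KO, a 198-fold difference that was not called (edgeR adjusted p = 0.106). Some segments led by 1 WT library were not called: Ighv1-81 had 1008, 134 and 64 counts in WT and 0 in KO (edgeR adjusted p = 0.234), and Igkv6-15 had 279, 199 and 690 counts in WT against 17, 0 and 0 in KO (edgeR adjusted p = 0.263).

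In alveolar macrophages the depth of V reads allowed a test of 12 segments, and edgeR called 0 of them, with 55 of all 17369 genes (0.317%) called in either direction. At an unadjusted p under 0.05 there were 10 of the 12, against 12.5% of all genes, and DESeq2 called 6, against 5.31%. Igkv1-117 had 346, 42 and 18 counts in WT and 0 in KO, at least 139-fold lower (edgeR adjusted p = 0.151). Igkv6-32 had 26, 14 and 17 counts in WT and 0 in KO, at least 19.5-fold lower (edgeR adjusted p = 0.114). Ighv1-76 had 50, 14 and 13 counts in WT and 0 in KO, at least 26.3-fold lower (edgeR adjusted p = 0.129). Each of these had all WT libraries above 10 counts and none overlapped with KO. The lambda segment Iglv1 did overlap, with 6, 34 and 26 counts in WT and 0, 14 and 0 in KO, a 4.84-fold difference (edgeR adjusted p = 0.655).

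In microglia no segment passed the filter, so none was tested there, and 0 of 17880 genes (0.0%) were called in either direction. Without the filter 65 segments could be tested, and edgeR called 0, with 4 at an unadjusted p under 0.05, against 6.1% of all genes. DESeq2 called 0. Heavy segments summed to 57, 120 and 45 counts in the 3 WT microglia libraries and to 8, 1 and 6 counts in KO, groups that did not overlap. A change of any single segment was not detectable at this depth.

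Read as whole groups, 113 of the 122 tested splenic segments had all 3 KO libraries below all 3 WT libraries, against 11.9% of all genes tested. The same held for 112 of 114 tested Kupffer segments, against 7.04% of all genes, and for 10 of 12 tested alveolar segments, against 11.8%. No tested segment had all KO libraries above all WT libraries in these 3 cell types, where 8.02% of all genes in splenic macrophages, 5.87% in Kupffer cells and 7.61% in alveolar macrophages did. The tested segments had entered mostly through WT, which largely set these directions, so the counts are descriptions. With segments at 0 in KO placed at the floor, the median log2 difference over tested segments was -6.07 in splenic macrophages, -6.0 in Kupffer cells and -4.27 in alveolar macrophages. Over all genes tested the medians were -0.003, -0.003 and -0.015. Over every segment whose WT mean was above the floor, tested or not, the median was -4.69 in splenic macrophages (197 segments), -4.87 in Kupffer cells (193), -2.45 in alveolar macrophages (127) and -1.54 in microglia (33). Many of these segments had few WT reads, which caps the difference that the floor can show.

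**Figure D3:**
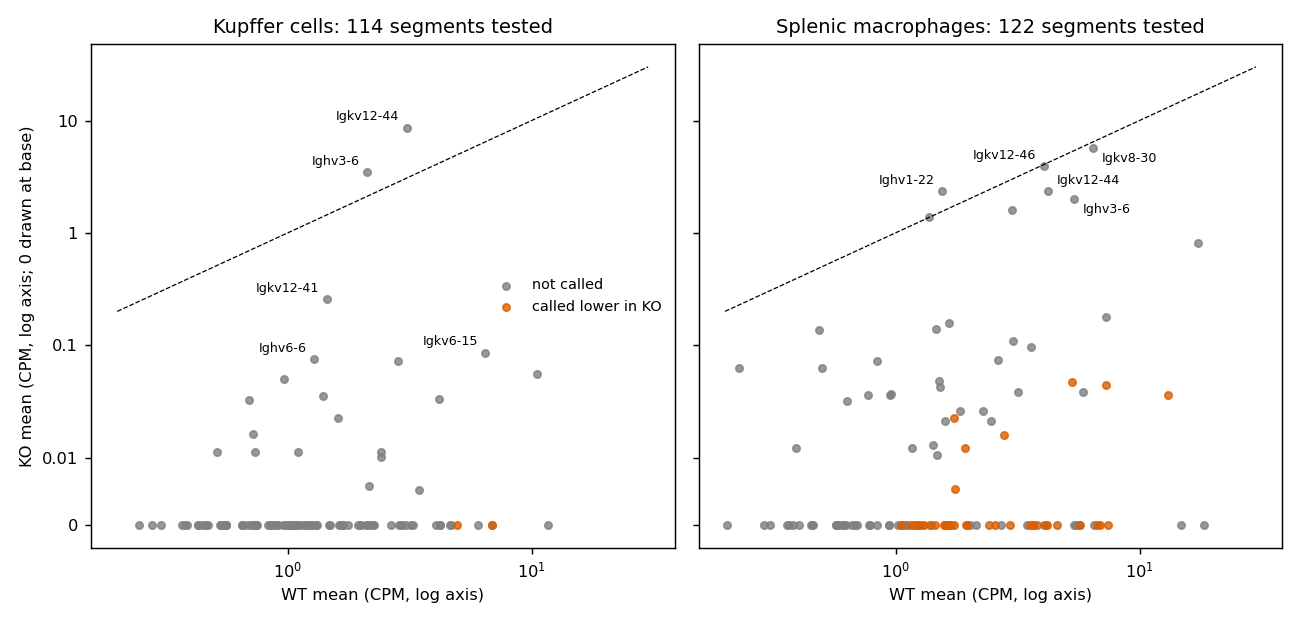
Mean level in KO (vertical axis) against mean level in WT (horizontal axis) of each tested V segment, in CPM on log axes with 0 drawn at the base, for Kupffer cells and splenic macrophages. The dashed line marks equal means, orange points are segments called lower in KO (2 in Kupffer cells, 40 in splenic macrophages), and the few segments on or above the line each owe their KO mean to 1 library.

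Whether the genotype difference itself varied between cell types was tested as an interaction over all 24 libraries. Of 154 segments that passed the filter there, edgeR called 0, against 126 of 24030 genes (0.524%), with 17 segments at an unadjusted p under 0.05, against 11.6% of all genes, and DESeq2 not run for this term. Igkv6-23 had the smallest adjusted p (0.118). Averaged over the 4 cell types, 17 of the 154 segments were called lower in KO, against 113 of 24030 genes (0.47%), and 0 were called higher, against 0.154% of all genes. The 154 segments had entered mostly through WT, which largely set this direction, so the counts are descriptions. Igkv1-110 led the 17 called, with a mean log2 difference of -8.70 ± 0.83 (SE, edgeR adjusted p = 0.00042), followed by Igkv19-93 with -8.02 ± 0.88 (edgeR adjusted p = 0.000451). These fitted values depend on the prior count wherever a group is at 0, and they are not bounds. Their SE, derived from the F statistic as for Zeb2, does not measure precision where a group is at 0. Of the 17, Iglv2 was the lambda segment, with -6.55 ± 0.85 (edgeR adjusted p = 0.000983). The count was 5 without WT microglia replicate 2.

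Between WT cell types, 131 of 153 tested segments differed by edgeR's F test, against 52.3% of all genes tested. Counts of at least 10 in all 3 WT libraries were reached by 122 segments in splenic macrophages, 114 in Kupffer cells, 10 in alveolar macrophages and 0 in microglia. The tested segments thus entered mostly through splenic and Kupffer libraries, which largely set the directions that follow, so these counts are descriptions. WT splenic macrophages had 128 segments above the mean of the other 3 cell types and 0 below it, where 14.5% of all genes were above and 9.69% below. WT Kupffer cells had 108 segments above and 0 below, where 15.2% of all genes were above and 7.58% below. WT microglia had 117 segments below and 0 above, where 20.3% of all genes were below and 21.7% above. In WT alveolar macrophages 4 segments were below (14.7% of all genes were) and 1 was above (17.3%). The 1 above was Ighv5-17, with a log2 difference of 3.48 (edgeR adjusted p = 0.0494), and its 397, 8 and 7 counts there rest on replicate 1. The 4 below were Igkv1-122, Igkv8-19, Igkv1-133 and Igkv3-10. Tests with the other 3 cell types as reference share libraries, so the counts are not independent of each other.

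Levels of different segments can be compared per length, in TPM (transcripts scaled for length and to a common total). In WT splenic macrophages the highest mean TPM among kappa segments was that of Igkv17-121 (160), then Igkv12-89 (143) and Igkv1-117 (104). Among heavy segments it was Ighv6-6 (51.5), Ighv1-55 (51.3) and Ighv3-6 (48.3), and among lambda segments Iglv1 (139) stood above Iglv2 (62.5) and Iglv3 (25.5). In WT Kupffer cells Igkv1-117 (91.7 TPM), Iglv1 (84.2 TPM), Ighv1-81 (62.6 TPM) and Igkv10-96 (60.2 TPM) were highest of their chains or next to it. In WT alveolar macrophages Ighv5-17 (18.9 TPM), Ighv5-4 (18.7 TPM), Igkv1-117 (18.5 TPM) and Igkv4-70 (15.3 TPM) led. Many of these means rest on 1 library, so neighbours in these orders do not differ beyond their spread.

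The spread of reads over segments also differed. A library's leading segment, the one with the most reads of its chain, held small shares in WT Kupffer cells and splenic macrophages. In the 3 WT splenic libraries it held 13% (Ighv1-78), 16.5% (Ighv1-55) and 8.36% (Ighv3-6) of heavy V reads and 18.4% (Igkv17-121), 22.1% (Igkv12-89) and 8.46% (Igkv8-30) of kappa V reads. In WT Kupffer cells it held 17.8% (Ighv1-81), 10.8% (Ighv1-82) and 9.70% (Ighv1-55) of heavy and 10.6% (Igkv1-117), 10.2% (Igkv1-117) and 9.80% (Igkv6-15) of kappa V reads. The 95% Wilson intervals of these shares lay within 1.1 percentage points of them. Within each group the leader differed between libraries, except Igkv1-117, which led the kappa segments of 2 WT Kupffer libraries.

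In WT alveolar macrophages single segments held more. Ighv5-4 held 29.0% (95% Wilson interval 26.7 to 31.4) and Ighv5-17 27.4% (25.1 to 29.7) of the heavy V reads of replicate 1, where Igkv1-117 held 22.6% (20.6 to 24.8) of kappa V reads. Ighv1-39 held 17.2% (14.4 to 20.5) of heavy and Igkv8-21 14.7% (13 to 16.7) of kappa V reads in replicate 2. Ighv9-3 held 47.7% (42.8 to 52.6) of heavy and Igkv4-70 43.4% (39.8 to 47.1) of kappa V reads in replicate 3. The effective number of segments, the inverse of the summed squared shares, was 5.53, 13.3 and 4.19 for heavy segments there, against 16.8, 29.1 and 26.4 in WT Kupffer cells and 26.4, 16.8 and 30.4 in WT splenic macrophages. For kappa segments it was 10.7, 13.1 and 5.01 in alveolar macrophages, 26.5, 32.8 and 28.2 in Kupffer cells and 19.7, 12.5 and 28.8 in splenic macrophages. Alveolar libraries had fewer V reads (394 to 1450 heavy reads, against 3579 to 6633 in the others), and the part of depth in this difference was not tested.

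In several KO libraries most of the V reads left sat on 1 segment of a chain. In Kupffer KO replicate 2, Ighv3-6 held 619 of 660 heavy V reads, 93.8% (95% Wilson interval 91.7 to 95.4), and Igkv12-44 held 1553 of 1624 kappa V reads, 95.6% (94.5 to 96.5). The other 2 Kupffer KO libraries had 0 reads of either. In WT Kupffer cells Ighv3-6 had 121, 136 and 128 counts and Igkv12-44 had 206, 242 and 110, so the pooled KO mean of both lay above WT while 2 of 3 KO libraries were at 0. Neither was called (edgeR adjusted p = 0.984 and 0.957). Igkv12-41, the relative printed above, had 46 counts in the same KO library and 88, 110 and 65 in WT. Igkv12-46 had 13 there and 178, 155 and 178 in WT.

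Splenic KO replicate 3 had 3 leading heavy and 4 leading kappa segments. Ighv1-22 held 38.5% (95% Wilson interval 35.7 to 41.3) of its 1162 heavy V reads, Ighv3-6 32.7% (30.1 to 35.5) and Ighv1-72 22.5% (20.2 to 25). Igkv8-30 held 40.8% (39.0 to 42.7) of its 2667 kappa V reads, Igkv12-46 28.1% (26.4 to 29.8), Igkv12-44 16.6% (15.3 to 18.1) and Igkv3-2 11.4% (10.2 to 12.6). In counts, Ighv1-22 was at 91, 94 and 72 in WT and 0, 0 and 447 in KO (edgeR adjusted p = 0.936). Igkv8-30 was at 140, 133 and 809 in WT and 0, 0 and 1089 in KO (edgeR adjusted p = 0.984). WT and KO overlapped for both.

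Igkv12-44 recurred among the KO libraries of different tissues. It held 108 of 121 kappa V reads in alveolar KO replicate 2, 89.3% (95% Wilson interval 82.5 to 93.6), and 62 of 75 in replicate 3, 82.7% (72.6 to 89.6). WT alveolar libraries had 13, 3 and 14 counts of it, and the difference was not called (edgeR adjusted p = 0.595). In microglia it had 10 of the 21 kappa V reads of KO replicate 2 (47.6%, 28.3 to 67.6) and 0 in the other KO libraries, against 0, 0 and 9 counts in WT. In splenic macrophages it had 319, 200 and 183 counts in WT and 0, 4 and 444 in KO, a 1.60-fold lower mean (edgeR adjusted p = 0.890). It thus led the kappa segments of 4 KO libraries from 3 tissues. It also led those of WT microglia replicate 3, with 9 of 33 reads (27.3%, 15.1 to 44.2).

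The heavy leaders of the 2 alveolar libraries were not Ighv3-6, and microglia KO replicate 2 had 1 heavy V read in all, of Ighv3-6. Ighv1-26 held 77.9% (95% Wilson interval 68.6 to 85.1) of the 95 heavy V reads of alveolar KO replicate 2, and Ighv1-9 held 80.5% (66 to 89.8) of the 41 in replicate 3. Ighv3-6, the leader in Kupffer KO replicate 2, was second in splenic KO replicate 3 with 380 counts, at 0 in the other 2 splenic KO libraries, and at 299, 120 and 481 in WT spleen (2.42-fold lower mean, edgeR adjusted p = 0.814). The remaining splenic KO libraries were led by Ighv3-5 (20 of 54 heavy V reads, 37.0%, 25.4 to 50.4) and Igkv15-103 (26 of 58 kappa V reads, 44.8%, 32.7 to 57.5) in replicate 1 and by Igkv4-92 (21 of 49 kappa V reads, 42.9%, 30 to 56.7) in replicate 2. Ighv3-5 had 1, 2 and 0 counts in WT spleen. Heavy reads were spread more evenly in splenic KO replicate 2, where Ighv1-53 held 6 of 24 (25%, 12 to 44.9), and in Kupffer KO replicate 1, where Ighv1-74 held 10 of 32 (31.2%, 18 to 48.6). Libraries with so few reads can hold few segments, and the part of depth was not tested.

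**Figure D4:**
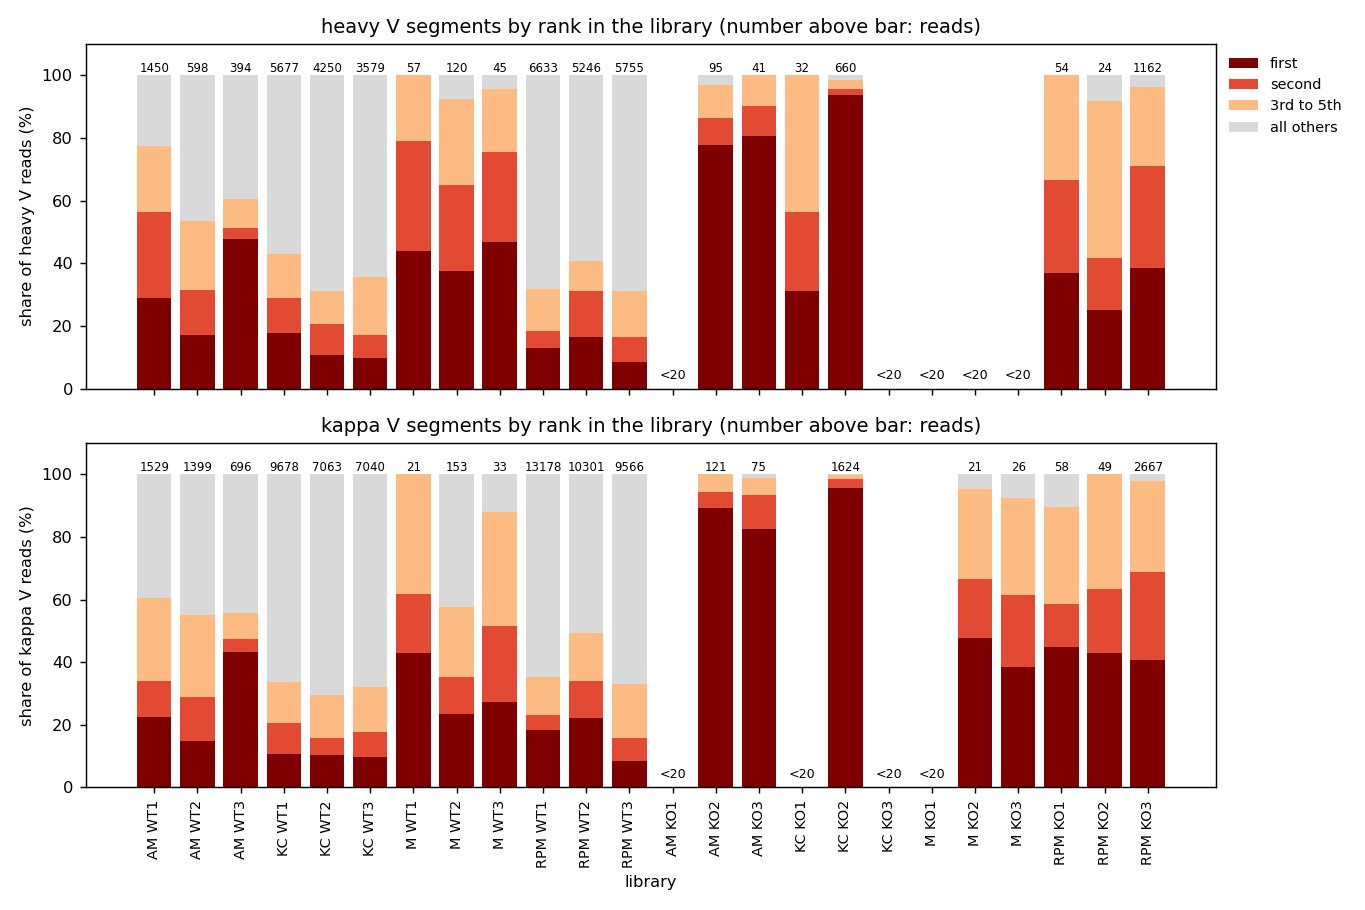
Share of heavy (top) and kappa (bottom) V reads held by the first, second, 3rd to 5th and remaining segments of each library, in percent, with the number of reads above each bar. Libraries with under 20 reads of a chain have no bar, and the tallest dark bars are the KO libraries AM KO2, AM KO3 and KC KO2 (alveolar and Kupffer).

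Igkv12-44 and Ighv3-6 were compared with the genes of antibody secretion beside them. Igha, the constant region of IgA, was at 46.4 CPM in Kupffer KO replicate 2 and at 0 in the other 2 Kupffer KO libraries, and at 105, 62.6 and 60.7 CPM in WT. In splenic macrophages Igha was at 0.253, 0.349 and 31.3 CPM in KO, so that replicate 3 lay above the WT values of 3.19, 2.5 and 0.764 CPM. In alveolar KO it was at 0, 7.48 and 4.40 CPM, the 2 libraries with reads being those led by Igkv12-44. Jchain, which joins secreted antibody into polymers, was at 5.74 CPM in Kupffer KO replicate 2 and 13.8 CPM in splenic KO replicate 3, against 7.43 to 13.1 CPM in WT Kupffer cells and 13.7 to 20.6 CPM in WT splenic macrophages. In alveolar macrophages Jchain was at 0, 1.39 and 0 CPM in KO, against 2.27 to 9.20 CPM in WT. Other plasma cell genes, Mzb1, Derl3 and Sdc1, are named here after their values were seen. Mzb1, a chaperone of antibody assembly, had 2 counts in Kupffer KO replicate 2 and 0 in splenic KO replicate 3, against 11 to 22 in WT Kupffer and 18 to 45 in WT splenic libraries. Derl3, which serves the disposal of misfolded proteins, had 0 counts in splenic KO replicate 3 and 79 and 26 in the other splenic KO libraries. WT splenic libraries had 61, 134 and 108 counts of it. In Kupffer cells Derl3 had 121, 128 and 62 counts in KO and 80, 83 and 1 in WT, ranges that overlapped. Sdc1 was at 3.76, 7.60 and 2.26 CPM in Kupffer KO, against 3.06 to 5.63 CPM in WT. In splenic macrophages Sdc1 was at 1.09, 0 and 2.06 CPM in KO, against 2.51 to 7.04 CPM in WT. In alveolar KO it was at 0, 0.925 and 0 CPM, against 2.55 to 4.32 CPM in WT. Pax5, which maintains B cell identity, was at 0 in every alveolar, Kupffer and splenic KO library. The part of these other cells in the V values was not tested.

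V reads were set against reads of the constant region genes of their chain. Heavy V segments had 13.2, 14.9 and 13.9 reads per 100 heavy constant reads in WT splenic macrophages, 13, 12.4 and 12.8 in WT Kupffer cells and 17.4, 13.8 and 12.1 in WT alveolar macrophages. In KO the ratio was 3.20, 1.38 and 15.5 in splenic macrophages, 0.645, 7.55 and 0.238 in Kupffer cells and 0, 9.55 and 6.07 in alveolar macrophages. Of these 9 KO libraries, 8 lay below the WT range of their cell type and splenic KO replicate 3 lay above it. Kappa V segments had 46.9, 52.1 and 45.9 reads per 100 Igkc reads in WT splenic macrophages and 27.8, 68.1 and 53.4 in KO, ranges that overlapped. Kappa ratios were 42.8, 42.7 and 44.7 in WT Kupffer cells and 37.8 and 55.2 in the 2 KO libraries with at least 20 Igkc reads. The 3 WT alveolar libraries had 1529, 1399 and 696 kappa V reads beside 2817, 2449 and 1214 Igkc reads. Alveolar KO replicate 2 had 121 kappa V reads beside 289 Igkc reads, and replicate 3 had 75 beside 104.

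The heavy constant gene Ighm, which encodes the IgM heavy chain, accounts for much of the constant reads. It was at 666, 530 and 616 CPM in WT and 29.4, 32.4 and 87.1 CPM in KO splenic macrophages, and at 509, 391 and 303 CPM in WT and 74.4, 97.9 and 26.8 CPM in KO Kupffer cells. In alveolar macrophages Ighm was at 125.5, 50.9 and 51.3 CPM in WT and 6.37, 8.45 and 7.58 CPM in KO. Of the heavy constant genes tested, edgeR called lower 2 of 5 in splenic macrophages (Ighm and Ighd, the IgD heavy chain), 1 of 6 in Kupffer cells (Ighd) and 1 of 3 in alveolar macrophages (Ighm). Of the 4 light constant genes tested in each, it called Iglc3 in splenic macrophages, Iglc1 in Kupffer cells and 0 in alveolar macrophages. Of all genes tested, 0.618%, 0.0629% and 0.132% were called lower in the same order.

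Microglia differed from the other cell types in this ratio. Heavy constant genes had 26174 to 33967 counts in the 6 microglia libraries, nearly all of them Ighm (462 to 630 CPM), a level like that of WT splenic macrophages. Heavy V segments had 0.195, 0.358 and 0.142 reads per 100 of these in WT and 0.0306, 0.00294 and 0.0186 in KO microglia. Igkc was at 0 in 5 microglia libraries and had 2 counts in KO replicate 3, while kappa V segments had 21, 153 and 33 counts in WT. Genes of the biotype for J segments, to which V segments are joined, had 601 to 1115 counts in microglia (11.5 to 22.0 CPM), against 12.1 to 27.5 CPM in WT Kupffer cells and 19.6 to 28.1 CPM in WT splenic macrophages. Ighv1-36 led the heavy segments of WT microglia replicates 1 and 3 with 25 of 57 and 21 of 45 reads, and Ighv1-67 those of replicate 2 with 45 of 120.

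**Figure D5:**
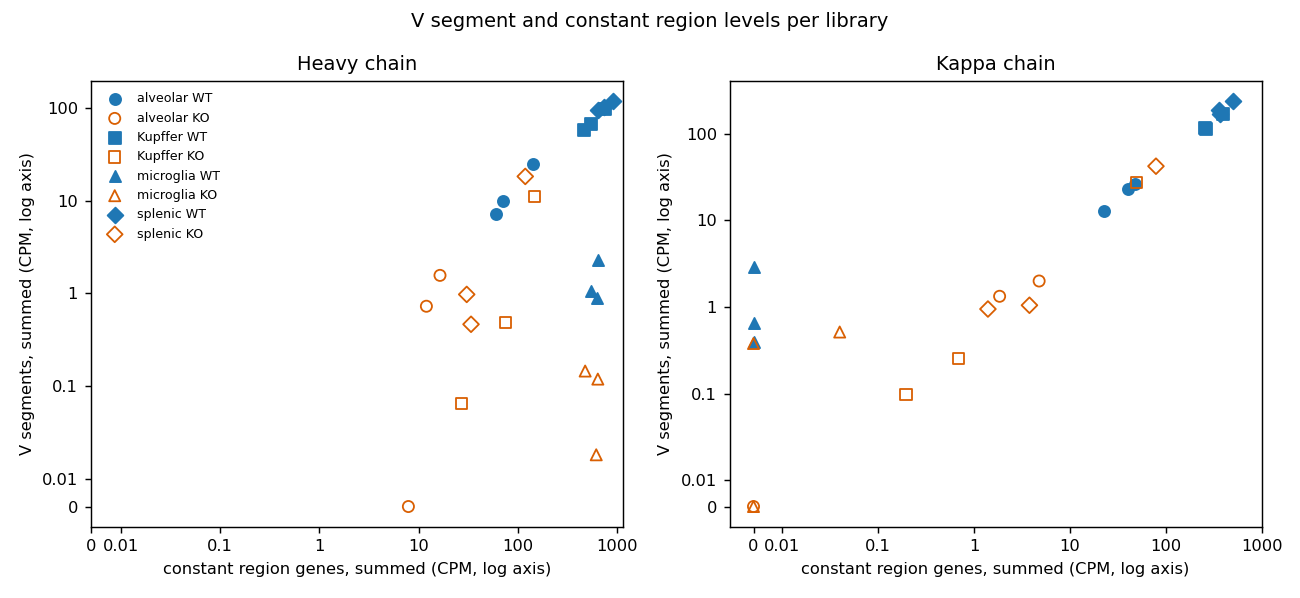
Summed V segment level (vertical axis) against summed constant region level (horizontal axis) in each library for the heavy and kappa chains, in CPM on log axes with 0 drawn at the base. Filled points are WT and open points KO, and the microglia points (triangles) lie at heavy constant levels like those of the WT splenic and Kupffer libraries with V levels of 2.29 CPM or less.

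Lists of related genes were counted in the same tests. Of B cell genes, edgeR called 15 of 18 lower in KO splenic macrophages, 6 of 18 in Kupffer cells, 3 of 16 in alveolar macrophages and 0 of 8 in microglia, with median log2 differences of -5.26, -4.75 and -4.95 in the first 3. Of all genes 0.618%, 0.0629% and 0.132% were called lower in these 3 cell types and none in microglia. Of plasma cell genes it called 1 of 10 lower in the spleen (Tnfrsf13b, a receptor for B cell survival factors), and 0 of 12, 0 of 9 and 0 of 9 lower in Kupffer cells, alveolar macrophages and microglia. In alveolar macrophages 1 plasma cell gene, Fkbp11, was called higher, where 0.317% of all genes were called in either direction. The summed B cell list ranged from 1220 to 1767 CPM in WT and 308 to 339 CPM in KO splenic macrophages, and from 710 to 1082 and 266 to 342 CPM in Kupffer cells. In alveolar macrophages it ranged from 176 to 224 CPM in WT and 97.8 to 119 CPM in KO, and in microglia from 175 to 200 and 183 to 194 CPM. In splenic macrophages, Kupffer cells and alveolar macrophages the list was lower in every KO library, like the V segments, and its part in the V result was not tested. In microglia its WT and KO ranges overlapped.

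Factors that bind immunoglobulin promoters and enhancers were counted likewise. In splenic macrophages edgeR called 4 of 10 lower in KO (Pou2af1, the octamer coactivator of B cells, and Ikzf3, Pax5 and Ebf1, transcription factors of B cell development), in Kupffer cells 2 of 10 (Pax5 and Ebf1), and 0 of 9 and 0 of 6 in alveolar macrophages and microglia. Pou2af1, Pax5 and Ebf1 are also on the B cell list, so their calls were counted in both lists. Of all genes, 0.618% were called lower in splenic macrophages, 0.0629% in Kupffer cells and 0.132% in alveolar macrophages. V segments of T cell receptors, which are joined by the same recombinase in T cells, gave another pattern. They summed to 15.3, 7.71 and 7.98 CPM in WT and 13.8, 11 and 8.65 CPM in KO splenic macrophages. In Kupffer cells they summed to 35.8, 29.5 and 18.2 CPM in WT and 45.4, 46.3 and 23.6 CPM in KO, and the groups overlapped in both. Of T cell genes edgeR called 0 lower in any cell type and 1 of 12 higher in splenic KO (Cd8a, a coreceptor of cytotoxic T cells). There 0.129% of all genes were called higher. V pseudogenes of the immunoglobulin loci summed to 3.09, 2.37 and 2.35 CPM in WT splenic and 2.01, 2.19 and 1.98 CPM in WT Kupffer libraries, and to no more than 0.332 CPM in any KO library.

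Segments are grouped into families by sequence. Ighv1, the largest heavy family with 53 segments, held 63.8 ± 8.84% of heavy V reads in WT Kupffer cells, 56.6 ± 7.38% in WT splenic macrophages and 44.6 ± 15.0% in WT alveolar macrophages (SD, n = 3). Ighv5, with 10 segments, held 21.9 ± 31.7% in alveolar macrophages, where replicate 1 was led by Ighv5-4 and Ighv5-17, and 9.17 ± 1.56% and 9.24 ± 1.18% in Kupffer cells and splenic macrophages. Igkv4, the largest kappa family with 26 segments, held 28.0 ± 26.7% of kappa V reads in alveolar macrophages, 14.8 ± 5.51% in Kupffer cells and 14.4 ± 4.61% in splenic macrophages. Igkv1 held 15.0 ± 10.6, 17.5 ± 4.11 and 14.0 ± 4.89% in the same order. For Ighv5, Igkv4 and Igkv1 the means differed between cell types by less than the SD of the alveolar libraries.

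Position along the heavy locus was summarised in 3 equal groups of segments. The group farthest from the J segments held 47.7 ± 11.4% of heavy V reads in WT Kupffer cells, 41.0 ± 10.8% in WT splenic macrophages and 26.1 ± 6.09% in WT alveolar macrophages, and the group nearest to them held 21.8 ± 7.51, 23.5 ± 4.52 and 50.8 ± 17.2%. In the alveolar libraries single segments weighed heavily: Ighv5-4 and Ighv5-17 held 29.0 and 27.4% in replicate 1, and Ighv9-3 held 47.7% in replicate 3. The part of such leaders in the alveolar position shares was not tested. Lambda segments held 9.78, 5.36 and 21.6% of light chain V reads in WT splenic, 7.57, 15.4 and 8.80% in WT Kupffer and 2.67, 3.52 and 3.87% in WT alveolar libraries. The 95% Wilson intervals were 9.31 to 10.3, 4.95 to 5.80 and 20.8 to 22.3% in the splenic libraries. They were 7.08 to 8.10, 14.6 to 16.1 and 8.18 to 9.45% in the Kupffer libraries. In the alveolar libraries they were 1.98 to 3.59, 2.69 to 4.59 and 2.69 to 5.53%. The alveolar values lay below those of the other 2 cell types in every library, but the interval of alveolar replicate 3 overlapped that of splenic replicate 2. Within the lambda chain Iglv1 held the most reads in all of these Kupffer and splenic WT libraries, from 54.5% (50.5 to 58.5) in splenic replicate 2 to 76.7% (73.4 to 79.8) in Kupffer replicate 3. Splenic KO replicate 1 had 76 lambda reads among 134 light chain V reads, 56.7% (48.3 to 64.8), of which 67 were Iglv1. No test was run on these shares.

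Across heavy segments (n = 113), the levels of any 2 WT splenic libraries had a Spearman rho of 0.787 to 0.829, 2 WT Kupffer libraries 0.775 to 0.83, and a Kupffer with a splenic library 0.765 to 0.831. Pairs of WT alveolar libraries had a rho of 0.325 to 0.43, lower than an alveolar library with a Kupffer library (0.505 to 0.604) or with a splenic library (0.508 to 0.641). Across kappa segments (n = 100) the order was alike, with 0.851 to 0.866 within splenic, 0.785 to 0.82 within Kupffer, 0.824 to 0.891 between them and 0.378 to 0.461 within alveolar libraries. These are descriptions across segments, which are not independent replicates and share reads with their near copies. Depth differed between the cell types, and its part in the lower alveolar values was not tested.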

How the data were processed

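The deposited table holds, for each of 24 bulk RNA-seq libraries, whole-number counts per gene, CPM and TPM, as the authors made them. The submitters' processing notes name DRAGEN, STAR, Subread, featureCounts and Salmon and the build mm10, without saying which made which values. Libraries were made with a SMARTer Ultra Low kit, per the labels' protocols. Of 55774 rows 287 were repeats and were dropped, which left 55487 genes. CPM recomputed from the counts differed from the deposited CPM by at most 4.7e-11. In 4 splenic libraries (WT replicate 3 and KO replicates 1 to 3) the deposited TPM column is treated as a signal, because repeated rows take its sum past the total that TPM allows. Every value column was used.

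The 218 segments and all gene lists were chosen with earlier results of these data known. Counts were tested with edgeR 4.0.16 (quasi-likelihood, TMM scaling, limma 3.58.1, R 4.3.3), for each cell type on its own 6 libraries without a block. The interaction and mean effect used all 24 libraries, and the WT comparison used the 12 WT libraries. Genes passed filterByExpr with a minimum count of 10, and Benjamini-Hochberg adjusted p over all genes tested was read at 0.05. The test was tried on simulated data first. DESeq2 1.42.0, other scalings, no filter, all 24 libraries in 1 fit, a replicate block and leaving out each library were alternatives. Replicates of a group differed by more than sampling noise (smallest chi-square per degree of freedom 29.4).

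A fold against a KO group at 0 uses a floor of 3 counts over that group. Segments are named where they have the 6 highest mean CPM of their chain, the 3 highest of a cell type and chain, a place among the 10 smallest adjusted p of the calls of a cell type, or over 25% of their chain in a library. Other leaders, relatives and calls were named after their values were seen. Positions and exons came from GENCODE M21 (mm10), where 55141 of 55487 genes and 218 of 218 segments were found. Shares of reads within a chain were computed where a library had at least 20 reads of it.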

Additional observations from a re-analysis of the deposited data

How the results depend on the processing

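Every summed level was lower in KO in all alternatives run, and no segment named for a call reversed. The number of segments called lower in KO was what moved, and for each shift below the cause was not tested. In alveolar macrophages edgeR called 0, DESeq2 6, edgeR without a filter 1 and edgeR over all 24 libraries 12. In Kupffer cells, where edgeR called 2, these gave 102, 37 and 20. In splenic macrophages, where edgeR called 40, DESeq2 gave 102 and edgeR without a filter 89. Leaving out 1 library gave 0 to 2 calls in Kupffer cells, 0 to 13 in splenic macrophages and 5 to 19 for the mean effect (17), with 0 throughout in alveolar macrophages, microglia and the interaction. With the replicate number as a block, edgeR called 0 segments in each cell type and 1 for the mean effect. Of all genes, DESeq2 called 5.31% in alveolar macrophages, 2.16% in Kupffer cells and 5.07% in splenic macrophages, in either direction. Shares of all genes under the other settings are not given here. Those counts therefore do not show whether a shift was particular to V segments. WT and KO libraries with the same number did not deviate together (correlations -0.04 to 0.036), so no pairing was used. The labels do not say whether 1 mouse gave several tissues, and the fits over several cell types treat libraries as separate. Between tissues of 1 genotype, the deviations of same-numbered libraries had correlations of -0.02 to 0.073 (36 pairs) and those of other libraries -0.056 to 0.052 (72 pairs). Over kappa segments, WT alveolar and Kupffer levels had a Spearman rho of 0.651 to 0.672 with the same number and 0.541 to 0.631 with different numbers. For heavy segments of these libraries the values were 0.505 to 0.577 and 0.532 to 0.604.

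Without the leading segment of each library the log2 ratio of summed means was -6.73 for kappa in alveolar macrophages, -7.55 for heavy and -8.22 for kappa in Kupffer cells. Leaving out 1 library gave -8.09 to -3.70 (heavy) and -9.54 to -3.26 (kappa) in Kupffer cells, and -7.20 to -3.45 and -7.63 to -3.20 in splenic macrophages. The WT mean less the KO mean of segments detected, at 10 counts, was 38.33, 139.67, 4.33 and 140.67 in the lung, liver, brain and spleen sets. At 1 count it was 94.67, 173.67, 12 and 171.33. At 1 CPM it was 5.33, 60.0 and 75.0 in the lung, liver and spleen sets. Read in TPM, heavy V per 100 constant was 74.4 and 31.7 (alveolar WT and KO), 67.7 and 16.5 (Kupffer), 1.22 and 0.090 (microglia), and 70.8 and 37.4 (splenic). The kappa ratio was 80.4 in alveolar WT, 62.3 and 65.8 in Kupffer WT and KO, and 69.9 and 71.8 in splenic WT and KO. The KO means of these ratios include Kupffer KO replicate 2 and splenic KO replicate 3 and were not recomputed without them. TPM divides by gene length, and V segments are short. Depth limits single segments most in microglia and in KO libraries.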
